A study of Mus musculus with 7 samples.

Results

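Gene deserts are long stretches of chromosome that hold no protein-coding gene. The H3K9me3 peaks described here are those of the WT and KO peak lists on chromosomes 1 to 19 that lay more than 200 kb from the body of any protein-coding gene in the GENCODE M1 annotation of mm9. They numbered 4067 of the 23190 WT peaks and 602 of the 3775 KO peaks, or 4669 of 26965 peaks in all. The rule used position alone and no value of the peaks. Sequence varies with distance from genes: deserts had 38.5% GC against 42.7% in the other autosomal sequence. H3K9me3 was profiled by native chromatin immunoprecipitation and sequencing (ChIP-seq) in Setdb1 cKO iMEFs, which are immortalized mouse embryonic fibroblasts with conditional alleles of Setdb1 in both groups. WT cells received no treatment. KO cells were given 4-hydroxytamoxifen (4OHT) for 4 days, the agent used to delete Setdb1, and were harvested on day 7. The study's methods describe cells recloned from single cells, with a clone picked for its good response to 4OHT, so the groups speak for 1 line. Each group had 1 library, and none of the differences below has a replicate check or a p-value.

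Setdb1 is a histone methyltransferase that trimethylates lysine 9 of histone H3 and can be brought to DNA by zinc-finger proteins acting through Trim28. It is best known for the silencing of endogenous retroviruses (ERVs), while other H3K9 methyltransferases also mark satellite repeats and LINE-1 retrotransposons. For the VL30 family of ERVs in MEFs, the paper concludes that silencing is kept up mostly without Trim28. Gene deserts are poor in GC and rich in LINE-1 elements, many of which are broken copies that can no longer move.

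The peak lists gave, for each peak, the pileup of fragments at its summit, its fold enrichment over the local background, and a score, the −log10 of the caller's q-value. Over all autosomal peaks the WT list held 21957 and the KO list 3668, the KO number being 16.7% of the WT number. The local background, in fragments, follows from the pileup and the fold. The lowest pileup in both lists was 9 fragments. Read totals are not part of the lists used here, and the paper gives only a narrow range of read numbers for its iMEF ChIP-seq data. A WT peak absent from the KO list was not called there, which does not show that the mark was absent. The lists hold no measure of the deletion of Setdb1 or of the identity of the cells, so neither label could be checked.

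The sequences that carry the results are given here in the order of the results, from mm9 (NCBIM37), plus strand, and at most the first 300 bases of a peak. A peak without a KO peak sharing at least 1 bp is called lost, one with such a peak retained, and a KO peak apart from all WT peaks KO-only. The first set holds the 3 highest-scoring lost peaks. In the first and the third of these, capitals mark the 31-base word with most copies in the genome, and in the second they mark the base that differs from the mitochondrial genome.
Lost 1, chr13:26332120-26332245: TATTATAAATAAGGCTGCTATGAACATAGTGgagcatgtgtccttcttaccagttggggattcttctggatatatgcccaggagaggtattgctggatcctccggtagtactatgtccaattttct
Lost 2, chr12:98299666-98299965: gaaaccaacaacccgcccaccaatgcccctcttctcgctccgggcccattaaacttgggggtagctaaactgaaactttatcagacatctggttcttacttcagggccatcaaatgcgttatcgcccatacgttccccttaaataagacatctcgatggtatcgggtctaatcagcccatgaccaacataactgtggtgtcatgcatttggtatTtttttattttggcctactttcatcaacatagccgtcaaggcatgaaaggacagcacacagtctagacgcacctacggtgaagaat
Lost 3, chr13:82960943-82961242: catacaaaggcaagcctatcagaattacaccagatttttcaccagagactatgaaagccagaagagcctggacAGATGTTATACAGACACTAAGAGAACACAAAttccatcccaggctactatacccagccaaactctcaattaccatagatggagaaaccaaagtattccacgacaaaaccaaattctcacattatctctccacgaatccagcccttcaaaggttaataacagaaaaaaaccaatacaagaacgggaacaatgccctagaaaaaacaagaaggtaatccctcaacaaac
The second set holds the highest-scoring WT peaks with over 10 to 1000 copies, in a listed ERV and at a LINE-1 motif, again with the most frequent 31-base word in capitals.
Middle copy number, chr10:97463473-97463638: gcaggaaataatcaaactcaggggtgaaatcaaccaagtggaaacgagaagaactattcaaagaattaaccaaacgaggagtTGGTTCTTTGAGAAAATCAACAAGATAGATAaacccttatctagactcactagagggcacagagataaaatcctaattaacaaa
IAPEz, chr1:142936564-142936863: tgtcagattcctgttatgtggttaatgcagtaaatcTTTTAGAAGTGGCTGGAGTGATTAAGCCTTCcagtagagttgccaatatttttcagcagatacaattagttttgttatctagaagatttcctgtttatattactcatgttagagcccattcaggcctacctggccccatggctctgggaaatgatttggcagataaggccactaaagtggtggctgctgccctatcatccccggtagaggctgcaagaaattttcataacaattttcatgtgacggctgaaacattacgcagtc
LINE-1, chr17:42014827-42014928: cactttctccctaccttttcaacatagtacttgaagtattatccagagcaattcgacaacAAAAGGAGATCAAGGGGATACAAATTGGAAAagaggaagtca
The third set holds the 3 highest-scoring retained peaks, and capitals in the first mark codons of the linker that joins neighboring zinc fingers.
Retained 1, chr3:12856792-12857091: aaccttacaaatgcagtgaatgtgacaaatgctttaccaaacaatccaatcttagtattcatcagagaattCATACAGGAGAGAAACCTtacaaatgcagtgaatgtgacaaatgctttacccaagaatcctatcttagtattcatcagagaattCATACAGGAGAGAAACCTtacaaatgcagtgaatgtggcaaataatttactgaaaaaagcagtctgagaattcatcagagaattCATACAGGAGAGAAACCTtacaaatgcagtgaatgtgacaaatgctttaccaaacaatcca
Retained 2, chr1:48938381-48938491: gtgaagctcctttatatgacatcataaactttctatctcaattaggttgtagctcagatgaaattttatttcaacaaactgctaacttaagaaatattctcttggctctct
Retained 3, chr12:48934945-48935113: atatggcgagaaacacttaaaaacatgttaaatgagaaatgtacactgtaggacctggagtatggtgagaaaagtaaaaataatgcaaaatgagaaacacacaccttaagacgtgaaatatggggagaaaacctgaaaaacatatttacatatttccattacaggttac
The fourth set holds the 3 highest-scoring KO-only peaks and the highest-scoring retained peak of each of the tandem arrays at the starts of chromosomes 16 and 3, the last pair chosen after their values were seen. Capitals mark an alternating A and T tract of at least 20 bases in KO-only 3, and in the array peaks a 12-base word, AGCACTGTGACA on one strand, that was the most frequent of the words held by both peaks of that pair.
KO-only 1, chr3:120624512-120624575: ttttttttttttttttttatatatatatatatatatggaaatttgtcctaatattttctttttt
KO-only 2, chr16:3236196-3236264: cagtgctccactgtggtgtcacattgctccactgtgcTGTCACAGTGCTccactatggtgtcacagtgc
KO-only 3, chr10:49748605-49748685: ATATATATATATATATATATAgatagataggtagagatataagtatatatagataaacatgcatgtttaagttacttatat
Array of chromosome 16, chr16:3231599-3231684: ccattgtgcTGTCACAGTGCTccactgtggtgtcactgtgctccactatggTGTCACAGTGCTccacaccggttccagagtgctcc
Array of chromosome 3, chr3:3001806-3001956: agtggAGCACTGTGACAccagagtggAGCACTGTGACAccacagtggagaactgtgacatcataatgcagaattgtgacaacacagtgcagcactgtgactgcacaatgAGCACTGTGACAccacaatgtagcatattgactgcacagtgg

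To ask whether deserts carried the mark as densely as the rest of the genome, peaks were counted per Mb of sequenced bases. Deserts made up 444 Mb, or 18.6% of the autosomal sequence, and held 18.5% of the autosomal WT peaks (95% Wilson interval 18.01 to 19.04; intervals in parentheses below are of this kind and cover counting error only). The density was 9.16 WT peaks per Mb in deserts and 9.18 per Mb elsewhere. The density was uneven within the sequence outside deserts and fell slowly within them. Inside coding genes the WT list had 4.86 peaks per Mb, within 50 kb of a gene it had 14.2, and beyond that it fell to 9.43 at 200 to 500 kb and 8.77 at over 500 kb. The KO list had 1.36 peaks per Mb in deserts and 1.57 elsewhere, and deserts held 16.4% of its autosomal peaks (15.2 to 17.6). In bases the desert marks were sparser. WT peaks covered 1453 bases per Mb in deserts and 2040 per Mb elsewhere, and KO peaks 122 and 197.

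**Figure D1:**
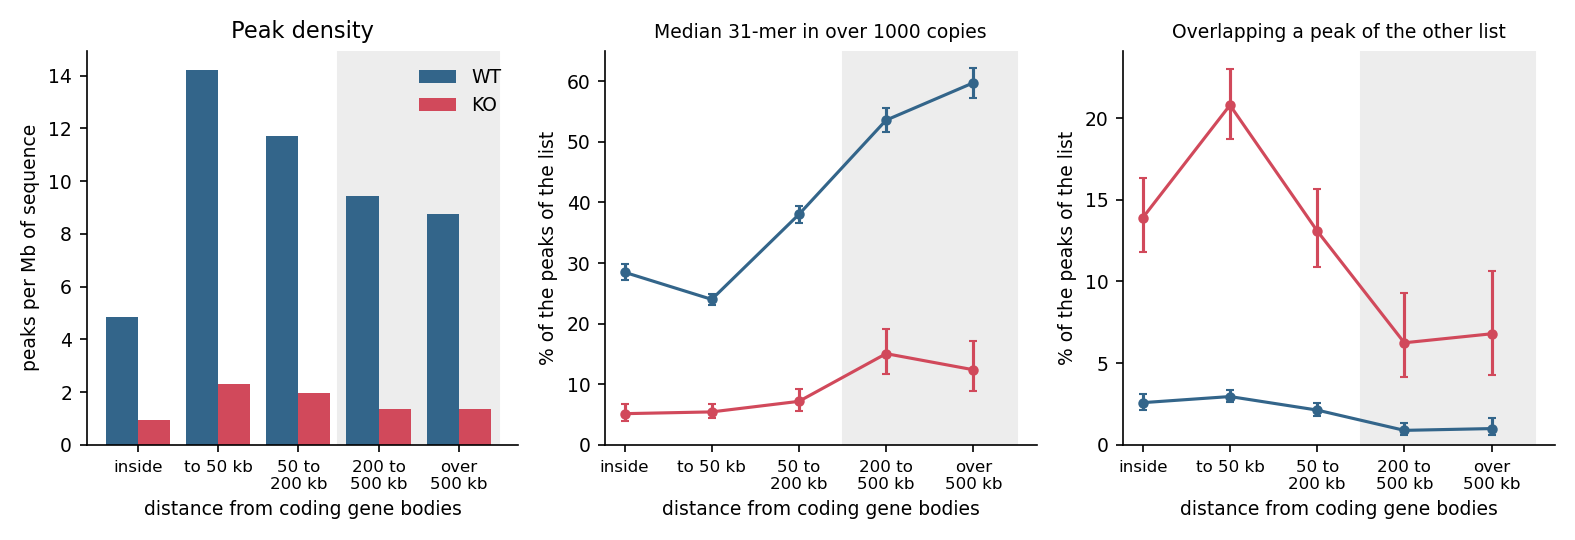
Peaks by distance from coding gene bodies, in 5 bins, with deserts shaded. The left panel gives peaks per Mb of sequenced bases in WT and KO, the middle panel the percentage of each list whose median 31-mer occurs more than 1000 times in the genome, and the right panel the percentage overlapping a peak of the other list, with bars for the 95% Wilson interval. The share of high-copy WT peaks is 24.0% within 50 kb of genes and 59.7% beyond 500 kb, while the retained share falls from 2.96% to 1.00%.

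Desert peaks were small in both lists. The WT members had a median width of 114 bp, against 144 bp for the other autosomal WT peaks, and 2.19% (1.78 to 2.69) were wider than 500 bp, against 7.74% (7.36 to 8.14) elsewhere. Their pileup had a median of 10 fragments and a highest value of 101, and 47.4% stood at the lowest pileup of 9, against 42.1% elsewhere. The KO members had a median width of 74 bp, against 87 bp elsewhere, and 60.6% (56.7 to 64.5) stood at the lowest pileup, against 44.1% (42.3 to 45.8). No KO member was wider than 500 bp, a count of 0 of 602 that allows a share of up to 0.498%. WT members were also more scattered: 46.5% had another WT peak within 10 kb, against 60.3% of the WT peaks elsewhere.

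WT desert peaks often lay on sequence repeated many times in the genome. The copy number of a peak was taken as the median number of occurrences of its 31-base words in the mm9 chromosomes. It was over 1000 in 2277 of the 4067 WT members, or 56.0% (54.5 to 57.5), and in 28.8% (28.1 to 29.5) of the other autosomal WT peaks. With 51-base words in place of 31 the WT desert share was 35.51%. Single-copy sequence made up 17.2% (16.1 to 18.4) of WT members and 32.6% elsewhere. Among the 602 KO members 411 were single-copy, or 68.3% (64.4 to 71.9), against 55.1% (53.3 to 56.8) of the KO peaks elsewhere. Over 1000 copies were found for 84 KO members, or 14.0% (11.4 to 17.0), against 5.81% (5.03 to 6.69) elsewhere, so that single-copy peaks outnumbered high-copy ones in KO on either side. Of these 84, 13 held an alternating A and T tract. The authors' mapping set a read that matched several places on a random one of them, so a peak on high-copy sequence stands for its family more than for its place.

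The fall in number from WT to KO was uneven over these classes. In deserts the KO list held 3.12% as many peaks as the WT list on sequence with over 1000 copies (71 and 2277 peaks, A and T tracts left out), 3.94% with over 10 to 1000 copies (33 and 837), 22.05% with over 1 to 10 copies (56 and 254) and 58.8% on single-copy sequence (411 and 699). Elsewhere on the autosomes the values were 3.13%, 9.69%, 25.8% and 29.0%. Few single-copy peaks were called in both lists, as 15 of the 699 single-copy WT members were retained, or 2.15% (1.30 to 3.51). Most of these 15 lay in the tandem arrays at the starts of chromosomes 3 and 16. The class counts exact words, so repeats that have diverged can fall in it. The retained share is therefore not that of unique sequence alone. The single-copy KO members were weak, with a median pileup of 9 and a 95th percentile of 12.5 fragments.

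Lost 1, the highest-scoring desert peak of either list, lay in the high-copy class. It spanned chr13:26332120-26332245, between Gm17582, 558 kb to its left, and Gm11353, 252 kb to its right, with a pileup of 30 and a fold enrichment of 13.4. Its 31-base words had a median of 12923.5 copies, and it lay 1446 bp 3′ of a LINE-1 motif. Lost 3 spanned chr13:82960943-82961290, 682 kb from Mef2c, a transcription factor gene of muscle and neurons. It had a pileup of 24 and a median of 3999 copies, and lay at −2275 bp from a LINE-1 motif, on its 5′ side. Both stood on a low local background, 1.31 and 1.16 fragments.

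LINE-1 elements are retrotransposons whose ORF2 encodes a reverse transcriptase, and matches to a short stretch of that enzyme around its FADD motif were used to mark them. The stretch was taken over from earlier work on these lists, so the values are a description. Deserts held 5164 of the 16532 autosomal motifs, and 9.11% of desert sequence lay within 4 kb of a motif, against 4.56% elsewhere. Within 4 kb of a motif lay 2147 WT members, or 52.8% (51.3 to 54.3), and 118 KO members, or 19.6% (16.6 to 23.0). For the other autosomal peaks these shares were 31.2% (30.5 to 31.9) in WT and 14.4% (13.2 to 15.7) in KO.

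Along the element the WT desert peaks were unevenly placed. Of the 2144 whose centers lay within 4 kb of a motif, 906, or 42.3%, were 2 to 3 kb on its 5′ side, and the fullest 250-bp bin held 338. Of the 5164 desert motifs, 1366 had an open reading frame of at least 1500 bases running up to them. In these the frame began a median of 2163 bp on the 5′ side. The cluster, counted over all motifs with or without such a frame, lay around that position and just before it. In the 1000 bases before the motif there were 297 WT peaks and in the 1000 after it 290. The KO members gave 12 of 116 centers at 2 to 3 kb on the 5′ side, or 10.3%, and 26 at 1 to 2 kb. Seen from the motifs, 882 of the 5164 in deserts had a WT peak 2 to 3 kb upstream, or 17.1% (16.1 to 18.1), and 14 a KO peak, or 0.271% (0.162 to 0.455). Motifs outside deserts had a WT peak there in 20.9% (20.2 to 21.7) and a KO peak in 0.818% (0.668 to 1.00). From read density over whole LINE families, the paper describes only a slight drop of the mark in KO iMEFs. Counts of called peaks, many of them near the lowest pileup, are a different measure and do not give the amount of mark lost.

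**Figure D2:**
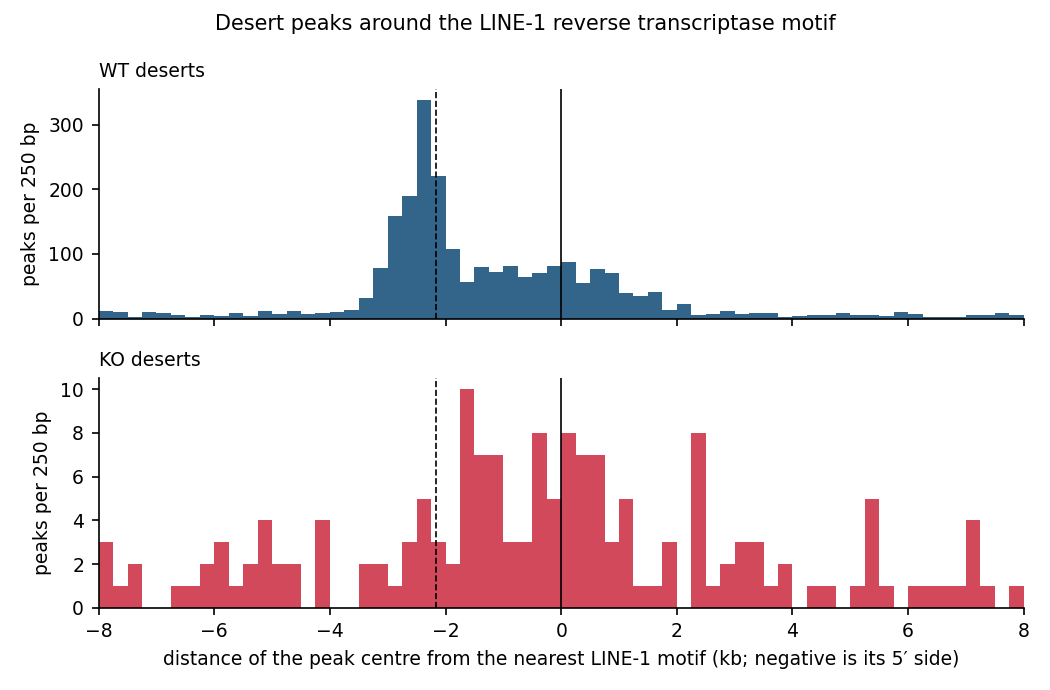
Number of desert peaks per 250 bp by the distance of their center from the nearest LINE-1 reverse transcriptase motif, in kb along the element, with negative values on its 5′ side, for WT (top) and KO (bottom, on its own scale). The solid line marks the motif. The dashed line marks the median start, 2163 bp upstream, of the open reading frame that runs up to 1366 of the 5164 desert motifs. The fullest WT bin, with 338 peaks, lies just upstream of that start, and the KO bins hold at most 10 peaks.

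ERVs, the best known targets of Setdb1, were followed at the internal parts of full-length elements of 5 families, whose positions the study lists. Flanking and solo LTRs, truncated copies and other families were not annotated, so a mark on an LTR alone was not counted. Of the listed elements 216 lay in deserts, and 103 of them, or 47.7% (41.1 to 54.3), carried a WT peak, as did 44.8% (41.3 to 48.3) of the 779 elements elsewhere on the autosomes. A listed element was overlapped by 157 WT members, or 3.86% (3.31 to 4.497), against 531 of 17890 WT peaks elsewhere on the autosomes, or 2.97% (2.73 to 3.23). MMERVK10C was marked most often, at 23 of 29 desert elements or 79.3%. IAPEz, a family of intracisternal A particles, followed with 72 of 141, or 51.1%. RLTR6 had 7 of 36, or 19.4%, MMVL30 had 1 of 10, and no RLTR4 element lay in a desert. The IAPEz peak printed above had a pileup of 16 and lay 428 kb from Kcnt2, a potassium channel gene.

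The place of the peaks along the element differed between these families. On IAPEz the 90 WT peaks had their median at 64.5% of the listed element, counted from its 5′ end, with quartiles of 43.3% and 70.8%. On MMERVK10C the 55 peaks had their median at 39.3%, with quartiles of 21.2% and 51.1%. The KO list marked 0 of the 141 IAPEz elements, which allows a share of up to 2.13%, and 3 of the 29 MMERVK10C elements. Of these 3 KO peaks, those at chr1:29667296-29667380 and chr17:41746809-41746902 overlapped WT peaks, with pileups of 10 and 13 in KO. The third, at chr4:130779524-130779669, was KO-only with a pileup of 14. The element on chromosome 1 was also among the elements with most WT peaks, 5, and its other WT peaks were lost.

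Zinc-finger sequence formed a further group. Kruppel-type zinc-finger proteins are encoded by long exons in which each finger and its linker repeat every 84 bases, and many of them recruit Trim28 and Setdb1. Linker codons were found in 19 WT members, or 0.467% (0.299 to 0.729), although the rule had removed every peak within 200 kb of an annotated coding gene. The KO list had 0 of 602, which allows a share of up to 0.498%, so that a difference from WT was not detectable. Elsewhere on the autosomes the WT share was 1.85% (1.66 to 2.06). Of these 19 peaks, 14 lay at chr12:19872084-23961377, 3 at chr13:61961540-61962634 and 1 each on chromosomes 11 and 3. Their pileups were 9 to 19 fragments on chromosome 12, 9 to 10 on chromosome 13, 10 on chromosome 11 and 26 on chromosome 3. Of the 19, 18 were lost. Of the 331 WT peaks with such codons elsewhere 13 were retained, or 3.93%.

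The exception, Retained 1, was the highest-scoring retained peak in the deserts. It spanned chr3:12856792-12858556, 918 kb from Ralyl and 1842 kb from Gm8910, and was 1765 bp wide with 10 linkers, 3 of which are seen in the bases printed. The 800 bases around its center matched themselves at a shift of 84 bases in 79.4% of positions. Its pileup was 26 in WT and 10 in the stronger of the 2 KO peaks it overlapped, and its fold enrichment was 11.7 and 5.32. The stronger KO peak was 98 bp wide, and neither held a linker.

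The chromosome 12 group lay mostly in and around the desert with the highest WT density among the 142 with at least 1 Mb of sequenced bases over 200 kb from a gene. Between Gm17680 and Gm17391 this interval had 36 WT peaks, or 34.5 per Mb, and 0 KO peaks. The median density of the 142 deserts was 7.69 WT and 0.837 KO peaks per Mb. Its peaks were of low to middle copy number, with 20 at over 1 to 10 copies, 14 at over 10 to 1000 and 2 above that. Of these 36 peaks, 8 held linker codons, 7 were wider than 500 bp, and the widest reached 1600 bp. Over chr12:19080470-24080407, which holds this and neighboring desert sequence, there were 51 WT and 0 KO members. All deserts of chromosome 12 had 244 WT and 13 KO members, a KO number of 5.33% of WT. The counts of 0 are thus too small to set the interval apart from its chromosome.

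Peaks were unevenly spread among the deserts. The 755 deserts had coding genes at least 400 kb apart or ended at a chromosome end. Of these, 554 held a WT peak and 238 a KO peak, 331 held WT and no KO peaks, 15 the reverse, and 186 neither. All 142 with at least 1 Mb of such bases held a WT peak and 97 a KO peak. The widest interval, between Gm5591 and Gm16387 on chromosome 7, had 7.20 Mb but no sequenced base more than 200 kb from these genes, and so no peak. The next were Celf4 to Pik3c3 on chromosome 18 (4.52 Mb, 16 WT and 4 KO peaks), Olfm4 to Pcdh17 on chromosome 14 (4.42 Mb, 31 and 4), Cntnap5b to Cdh20 on chromosome 1 (4.28 Mb, 54 and 1) and 4930555F03Rik to Aga on chromosome 8 (3.99 Mb, 30 and 19). Celf4 encodes an RNA-binding protein, and Pcdh17 and Cdh20 encode cell adhesion proteins of the cadherin family.

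Cntnap5b to Cdh20 held the most WT peaks, and 40 of its 54 were on high-copy sequence. It was followed by 45 peaks each in Tbl1xr1 to Gm7536 on chromosome 3 (2 KO peaks) and in the interval from the start of chromosome 3 to Hnf4g (11 KO peaks), 43 in Hace1 to Grik2 on chromosome 10 (8 KO peaks) and 37 each in Nmbr to Cited2 on chromosome 10 (1 KO peak) and Cntn5 to Phxr4 on chromosome 9 (3 KO peaks). The start of chromosome 3 differed from the others in make-up, with 1 high-copy peak among the 45 and a median local background of 3.29 fragments, against 1.16 in Cntnap5b to Cdh20. The highest KO count was 19, in 4930555F03Rik to Aga. It was followed by 11 each in 4 deserts, which were Gm17624 to Vstm2a on chromosome 11 (33 WT peaks), Large to Isx (30) and Gm17316 to Cdh11 (8) on chromosome 8, and the start of chromosome 3. The 3 widest with a sequenced interior and no peak in either list were Robo2 to Lipi on chromosome 16, Rps24 to Zmiz1 on chromosome 14 and Plk2 to Actbl2 on chromosome 13, with 0.729, 0.544 and 0.454 Mb more than 200 kb from a gene.

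Few desert peaks fell on any annotated transcript. A noncoding gene was overlapped by 81 WT members, or 1.99% (1.61 to 2.47), and by 4 KO members, or 0.664% (0.259 to 1.70). Processed transcripts took 47 of the WT peaks, pseudogenes 21, lincRNAs 12 and snRNAs 1, and no miRNA or snoRNA gene was overlapped. The pseudogene RP23-71I22.5 on chromosome 12, inside the zinc-finger interval, had most, 9 WT and 0 KO. Gm12132 on chromosome 11 and Gm13481 on chromosome 2 followed with 5 each, both without a KO peak. Gm12478 on chromosome 4, 2410018L13Rik on chromosome 12 and 4930554G24Rik on chromosome 11 had 4 each. In KO, 4930554G24Rik and, on chromosome 8, Gm17215, Gm10649 and Gm3985 had 1 peak each, beside 4, 0, 1 and 3 WT peaks. No annotated gene of any kind lay within 50 kb of 77.5% of WT and 80.4% of KO members.

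To see which desert marks were called in both libraries, the lists were overlapped. Over all autosomal peaks, 2.33% in WT had a KO peak on at least 1 of their bases and 15.1% in KO had a WT peak. In deserts 38 of 4067 WT peaks were retained, or 0.934% (0.682 to 1.28), and 39 of 602 KO peaks were shared, or 6.48% (4.78 to 8.73). The other autosomal peaks gave 2.65% (2.42 to 2.90) and 16.8% (15.5 to 18.2). Retention in deserts was 0.891% at 200 to 500 kb from genes and 1.00% beyond 500 kb, so that it did not go on falling within them. Both shares lay below the autosomal ones.

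Many retained peaks stood on a high local background. Of the 65 WT members with a background over 3 fragments, 17 were retained, or 26.2% (17.0 to 38.0), and of the 4002 others 21, or 0.525% (0.343 to 0.801). Elsewhere on the autosomes these shares were 33.5% (30.2 to 36.9) and 1.26% (1.10 to 1.43). On sequence with over 1000 copies 14 of 2277 were retained, or 0.615%. At the 38 positions the median pileup was 15.5 in WT and 11.5 in KO, the median fold enrichment 4.63 and 4.53, and 19 of the 38 had a lower fold in KO. The strongest KO peak was narrower than the WT peak in 34 of the 38.

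**Figure D3:**
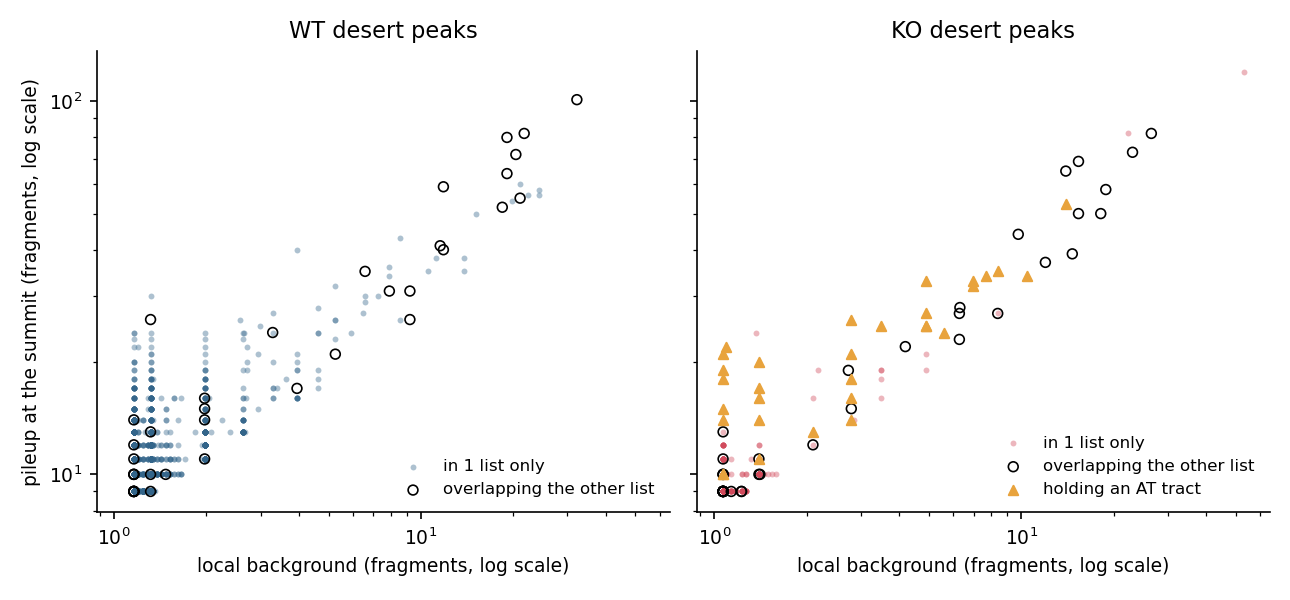
Pileup at the summit against the local background, both in fragments on log scales, for each WT (left) and KO (right) desert peak. Open circles mark peaks overlapping the other list and triangles KO peaks holding an alternating A and T tract. The WT peaks seen in 1 list only crowd at backgrounds under 3, while 17 of the 38 retained peaks lie above it.

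Retained 2, at chr1:48938381-48938491, was single-copy and lay 363 kb from C230029F24Rik and 2027 kb from Slc39a10. Its pileup was 80 in WT and 69 in KO on backgrounds of 19.1 and 15.4 fragments, so that the fold enrichment was 4.04 and 4.28. Retained 3, at chr12:48934945-48935113, lay between Nova1, a gene of neuronal splicing, and Gm1818. Its pileup was 82 in WT and 73 in KO. Of its bases, 138 matched the 234-bp tandem array at the start of the assembled chromosome 9 with 85.5% identity. A unit of this length is that of the mouse major satellite, the repeat of the pericentromeres. Matches to this array were found in 3 WT members, of which 2 were retained, and in 3 KO members, of which 1, at chr3:56379392-56379673, was KO-only with the highest pileup of any desert peak, 120, on a background of 53.1. These were 0.0738% of WT and 0.498% of KO members. Such matches were more common elsewhere on the autosomes, in 58 of 17890 WT peaks, or 0.324%, and 70 of 3066 KO peaks, or 2.28%. Of those 58 WT peaks, 46 were retained.

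Tandem arrays held 12 of the 38 retained desert peaks, or 31.6% (19.1 to 47.5). Elsewhere on the autosomes they held 103 of the 474 retained peaks, or 21.7% (18.3 to 25.7). An array was called where the 800 bases around a peak matched themselves at some shift of 10 to 300 bases in at least 45% of positions. Of the 85 WT members in arrays 12 were retained, or 14.1% (8.26 to 23.1), against 26 of the 3982 others, or 0.653% (0.446 to 0.955). Elsewhere these shares were 15.6% and 2.15%. Of the 12, 10 lay in arrays with a period of 21 bp at the starts of chromosomes 3 and 16. The array of chromosome 3 held 35 WT and 8 KO peaks at chr3:3000221-3032365, and 6 of the WT peaks were retained. Pileups there ran from 14 to 72 in WT, with a median of 24, and from 16 to 65 in KO, with a median of 22.5.

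The array of chromosome 16, at chr16:3231599-3241291, held 6 WT and 5 KO peaks, and 4 of the WT peaks were retained. Pileups ran from 26 to 59 in WT and from 27 to 82 in KO. The 12-base word marked in the printed sequences, found on either strand, occurred in 47 of the 54 members in these arrays and in 1 of the 4615 other members. Since the word was picked from members of these same arrays, its recurrence there is a description only. KO-only 2 lay within the chromosome 16 array, 356 kb from the olfactory receptor gene Olfr161, with a pileup of 82 on a background of 22.4. Without the members at the starts of these chromosomes, the retained share in deserts was 0.676% (0.465 to 0.981).

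**Figure D4:**
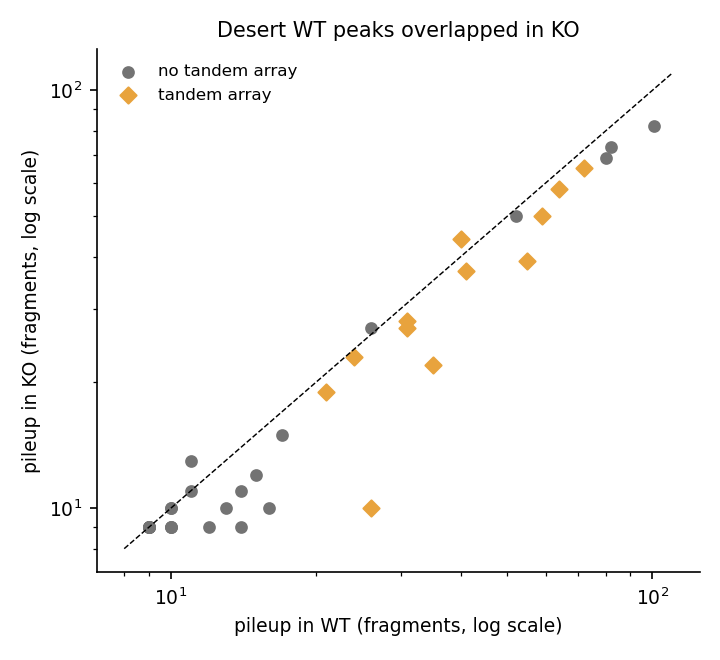
Pileup in KO, taken from the highest-scoring overlapping KO peak, against pileup in WT for the 38 retained desert peaks, both in fragments on log scales, with the line of equality dashed. Diamonds mark the 12 peaks in tandem arrays. KO pileups lie below the WT pileup in 25 of the 38, and the point farthest below the line is the zinc-finger peak of chromosome 3, at 26 and 10. The paper gives a narrow range of read numbers for its iMEF ChIP-seq data but no total for each library, and pileups were not scaled for depth here. The fold enrichment is lower in KO in 19 of the 38.

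Mitochondrial DNA was matched by 4 WT members, or 0.0984% (0.0383 to 0.253), and by 11 of 17890 WT peaks elsewhere, or 0.0615% (0.0343 to 0.110). It was matched by 0 of 602 KO members, which allows up to 0.498%, so that no difference between WT and KO was detectable. Lost 2, at chr12:98299666-98299979, was the second highest-scoring desert peak to be lost, with a pileup of 40 on a background of 3.94. All 314 of its bases aligned to mitochondrial DNA with 99.7% identity. It was single-copy by the count used here, which left mitochondrial DNA out. The other matches were chr4:79649804-79649875 and chr5:60434176-60434260, both identical over their whole length with pileups of 14 and 26, and chr6:9839964-9840148, with 98.9% identity and a pileup of 12. Nuclear copies of mitochondrial DNA are common in mammalian genomes, and the part of mitochondrial reads in these peaks was not tested.

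KO-only desert peaks numbered 563, and most of them were weak. The pileup was 9 in 352 of them, or 62.5% (58.5 to 66.4), and 8.17% (6.18 to 10.7) had another KO peak within 10 kb, against 29.96% (28.2 to 31.8) of the KO-only peaks elsewhere. They were poor in GC, with a median of 34.5%, against 38.0% for the lost WT members, and 28.1% (24.5 to 31.9) had under 30% GC, against 4.22% (3.64 to 4.89) of the lost WT members. Elsewhere on the autosomes 421 of 2550 KO-only peaks, or 16.5%, were below 30% GC.

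Many of the strongest held runs of alternating A and T. A tract of at least 20 bases was found in 31 KO-only members, or 5.51% (3.91 to 7.71), and in 0 of the 4067 WT members, which allows a share of up to 0.0738%. It was found in 0 of the 39 shared KO members, too few to set apart since this allows up to 7.69%. Of the KO-only peaks elsewhere 38 of 2550 held one, or 1.49% (1.09 to 2.04), and again none of the WT peaks. The 31 tracts were 21 to 58 bases long, with a median of 44, and lay on 12 chromosomes. Their peaks had pileups of 10 to 53 with a median of 21, against a median of 9 for the other KO-only members, and took 16 of the 20 highest scores among the KO-only members. Tracts were more common in desert sequence, at 24.6 per Mb against 12.9 elsewhere. Of the 10943 desert tracts, 0.283% (0.200 to 0.402) had a KO peak, and of the 25217 others 0.151% (0.110 to 0.207).

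KO-only 3, at chr10:49748605-49748685, lay 240 kb from the glutamate receptor gene Grik2 and had a pileup of 22 and a fold enrichment of 11.0, with a tract of 21 bases. KO-only 1, at chr3:120624512-120624575 and 234 kb from Rwdd3, had a pileup of 24. Its longest run of alternating A and T was 19 bases, 1 short of the limit, next to a run of T. The part of base composition in the calling of these peaks was not tested.

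The number of KO peaks against WT peaks differed between the chromosomes. In all deserts the KO list had 14.8% as many peaks as the WT list (13.6 to 16.1), and elsewhere on the autosomes 17.1% (16.5 to 17.8). On chromosome 8 it had 119 KO and 301 WT members, or 39.5% (32.0 to 48.9), and on chromosome 19 33 and 72, or 45.8% (30.4 to 69.0). Chromosome 11 followed with 28.9%. On none of these 3 chromosomes was a WT member retained, of 301, 72 and 159, against 0.934% over all deserts. Their KO members were thus all KO-only. The lowest values were 5.33% on chromosome 12 and 6.06% on chromosome 6. Outside deserts the same chromosomes gave 35.4% for chromosome 8, 26.6% for 19, 26.6% for 11, 4.81% for 12 and 7.18% for 6. On 15 of the 19 chromosomes the desert value was within 1.5 times the value elsewhere on that chromosome. Chromosomes 5 and 13, with KO numbers of 14.3% and 6.87% of WT in deserts, also had no retained WT member, of 224 and 131. These are again too few to set apart.

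Chromosome 8 alone held 19.8% of the KO desert peaks. None of its 119 KO members overlapped a WT peak (0 to 3.13%), against 39 of 483, or 8.07% (5.96 to 10.8), on the other autosomes. Of the 119, 80.7% (72.7 to 86.8) were single-copy and 68.9% (60.1 to 76.5) stood at the lowest pileup. On the other autosomes 65.2% (60.9 to 69.3) of KO members were single-copy and 58.6% (54.1 to 62.9) stood at that pileup. Its deserts were also dense in WT peaks, with 12.01 per Mb against 9.16 over all deserts. Those of chromosomes 17, 10 and 9 were denser, with 12.98, 12.64 and 12.54 per Mb and KO numbers of 21.4%, 15.8% and 10.6% of WT. Without chromosome 8 the KO list had 12.8% as many desert peaks as the WT list.

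**Figure D5:**
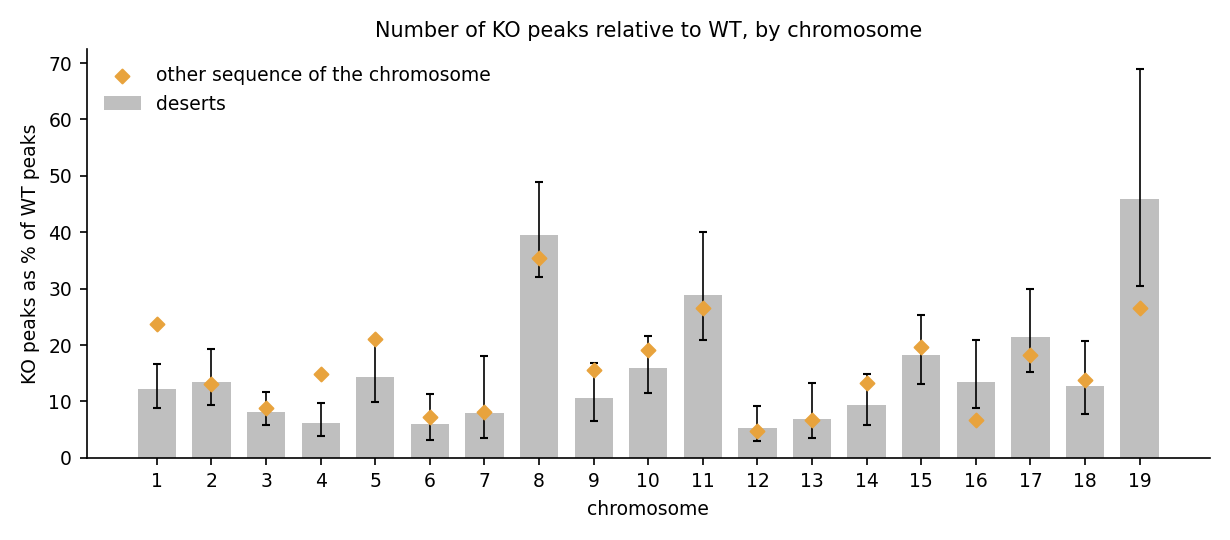
Number of KO peaks as a percentage of the number of WT peaks on each autosome. Gray bars give the value in deserts, with the interval that the 95% Wilson interval of the KO share gives, and diamonds the value in the rest of the chromosome. Chromosomes 8 and 19 reach 39.5% and 45.8% in deserts, and chromosome 12 has 5.33%.

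The peaks nearest to the limit of 200 kb were weak ones on either side. The WT peak just inside, at chr5:7760286-7760441, lay 200031 bp from a coding gene with a pileup of 9, and the one just outside, at chr6:131840028-131840258, lay 199947 bp away with a pileup of 10. The KO peaks just inside, chr17:53338046-53338136 at 200078 bp, and just outside, chr14:113915561-113915708 at 199626 bp, both had a pileup of 9. None of the 4 overlapped a peak of the other list.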

How the data were processed

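H3K9me3 native ChIP-seq peak lists of WT and KO Setdb1 cKO iMEFs were used, 2 of the series' 7 libraries, and the other 5 (forebrain and inputs) were not used. Reads were mapped to mm9 with Bowtie2 2.2.3, a read with several hits being placed at 1 of them at random, duplicates were removed, and peaks were called by the authors in each library with MACS2 2.1.0.20140616 (versions from the submitters' processing notes); the calling options are not given in the sources used here. The deposited lists give the pileup as a coverage signal in fragments, the fold enrichment as a ratio over the local background, and −log10 p- and q-values, with no read totals. The local background was computed as (pileup + 1)/fold − 1. Starts may be off by 1 bp, since the lists do not state how they count.

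Members and lists were chosen with earlier results of these data known. Distances were taken to the bodies of 21418 autosomal protein-coding genes of GENCODE M1. Copy number was the median genome count, on both strands, of a peak's 31-mers. LINE-1 motifs were translated matches to a 10-residue stretch of the reverse transcriptase. Tandem arrays had a self identity of at least 45% at a lag of 10 to 300 bp in 800 bp. Alternating A and T tracts had at least 20 bases. Mitochondrial and satellite matches covered at least 50% of a peak at an E-value of at most 1e-05. ERV positions, of internal parts, came from the study's supplementary list (995 on autosomes) and served as annotation only.

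Peaks named were the 3 highest-scoring lost, retained and KO-only members, and sequences printed also included the highest-scoring WT member of each sequence class. Deserts named were the 5 widest, the 5 with most WT members, the 3 with most KO members and the 3 widest with none. Noncoding genes named were the 5 and 3 with most WT and KO members. Ties with the last of these were named too. Array, satellite, mitochondrial and ERV peaks beyond this rule were named after their values were seen.

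With 1 library per group no test was run. Shares carry 95% Wilson intervals, and a count of 0 an upper limit of 3 counts. Alternatives were other distances, genes of any kind, a stricter q-value, low background, chromosome ends left out, merging of peaks, other overlaps, 51-mers and other motif and ERV distances. Scripts were tested on simulated data. Python 3.11.15, BLAST+ 2.17.0, pandas 2.3.3, numpy 2.4.6, numba 0.67.0, scipy 1.17.1 and matplotlib 3.10.9 were used.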

Additional observations from a re-analysis of the deposited data

How the results depend on the processing

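No paired analysis was possible because WT and KO were 1 library each. Of 107 values recomputed under alternatives, 68 moved by less than their 95% interval or, for counts, 1.5 times, and 39 moved by more. With the limit at 100 kb there were 6291 WT and 937 KO desert peaks, or 28.65% and 25.55% of the lists, with 51.31% of the WT peaks on high-copy sequence and 49.15% near a LINE-1 motif. At 500 kb the numbers were 1599 and 250, the shares 7.282% and 6.816%, high-copy WT peaks 59.72%, those near LINE-1 motifs 54.53% in WT and 15.2% in KO, and WT peaks in ERVs 4.503%. With no gene of any kind within 50 kb the desert shares were 14.36% in WT and 13.2% in KO. A score of at least 3 left 1960 WT and 197 KO members, 17.74% and 13.54% of the lists, a KO number of 10.05% of WT, 10.15% of KO members shared, and 60% and 56.22% of WT members on high-copy sequence and near LINE-1 motifs.

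With a background of at most 3 fragments the KO desert share was 18.45%, the retained share 0.5247% and the shared KO share 3.887%. Merging peaks within 1 kb gave 20.22% and 18.12% in deserts and a KO number of 16.7% of WT. Retention was 0.6147% with an overlap of at least 50% of the peak and 2.238% when any KO peak within 1 kb counted, which gave 12.13% for KO. With 51-mers the high-copy share was 35.51% in WT and 9.302% in KO. Within 2 kb of a LINE-1 motif lay 27.81% and 13.29%. In alternatives chosen after seeing the data, the KO number was 12.83% of WT without chromosome 8, and retention was 0.6755% without the starts of chromosomes 3 and 16. For none of them was the cause tested. In the 9 settings with every value, the WT shares on high-copy sequence and near LINE-1 motifs exceeded the KO shares. Precision is limited by 1 library per group and by the many peaks at the lowest pileup.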
